A study of Mus musculus with 192 samples.

Results

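Mx1, Mx2, Rsad2, Cmpk2, Eif2ak2 and Samd9l are 6 interferon-inducible genes whose products act against viruses inside the infected cell. They were followed here at their transcription start sites in single mouse embryonic fibroblasts (MEFs, connective-tissue cells grown from mouse embryos). The genes were chosen by name, and a gene's promoter windows were the deposited 150 bp start-site windows annotated to it within 1000 bp of an annotated start. These were 87 windows for the 6 genes, of 11638 genes with a promoter peak on their own strand in at least 1 cell used here. The peaks of the 6 genes were 151 in naïve cells and 245 in pretreated cells.

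All cells were MEFs of strain C57BL/6 treated with interferon-beta (IFN-beta, the signal that cells send out on virus infection) at 100 U/ml for 1 h. The labels separate 96 naïve cells from 96 pretreated cells. What the pretreatment was, and from which animal, culture or plate a cell came, is not given in the sources used here, so each group counted as 1 sample and no difference between groups has a replicate check or a p-value. Both groups carry the IFN-beta treatment, and no cell without it was analysed here.

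Interferon-beta binds a receptor on the cell surface, and its signal reaches a DNA element called the ISRE, through which antiviral genes are switched on. Mx1 and Mx2 are dynamin-like GTPases that form rings around viral nucleocapsids, and the C57BL/6 alleles of both carry defects in the coding sequence. Rsad2 encodes viperin, a radical SAM enzyme that turns CTP into a chain terminator of viral RNA synthesis, and Cmpk2, its neighbour in the genome, encodes a mitochondrial nucleotide kinase that can supply the nucleotide. Eif2ak2 encodes PKR, a kinase that binds double-stranded RNA and shuts down translation by phosphorylating eIF2 alpha. Samd9l encodes a large cytosolic protein that restricts poxviruses and limits translation and growth.

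RefSeq promoter sequences (assembly GRCm38.p6) were found for 4 of the 6 genes by symbol. They are shown because Rsad2 and Cmpk2 had the largest differences between groups, Samd9l was listed in 1 group alone, and Eif2ak2 was listed in most cells of both groups. Each is written 5′ to 3′ on the gene's strand, and capitals mark matches to the ISRE core GAAANNGAAA or to TATAAA on either strand. The Rsad2 stretch is chr12:26456453-26456602 (minus strand), the 150 bases before the start. The Cmpk2 stretch is chr12:26469115-26469214 (plus strand), the 100 bases before the start. The Eif2ak2 stretch is chr17:78882545-78882632 (minus strand), 60 bases before the start and 28 after it. The Samd9l stretch is chr6:3399572-3399671 (minus strand), the 100 bases before the start.
Rsad2: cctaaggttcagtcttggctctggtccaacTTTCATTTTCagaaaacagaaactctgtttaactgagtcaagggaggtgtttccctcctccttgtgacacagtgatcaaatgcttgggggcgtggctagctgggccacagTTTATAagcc
Cmpk2: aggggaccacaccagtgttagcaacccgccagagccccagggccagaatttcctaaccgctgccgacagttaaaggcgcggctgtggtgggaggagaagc
Eif2ak2: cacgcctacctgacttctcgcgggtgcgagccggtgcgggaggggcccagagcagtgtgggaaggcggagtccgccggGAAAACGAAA
Samd9l: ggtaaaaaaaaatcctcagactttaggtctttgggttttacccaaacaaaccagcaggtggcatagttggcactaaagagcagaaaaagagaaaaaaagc

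The ISRE core was searched on both strands from 250 bases before to 50 bases after the start, a window of 300 bases. It occurred in 3.44% of 32851 promoters, and TATAAA in 13.6%. In Rsad2 the core lies 120 to 111 bases before the start on the opposite strand, and TATAAA lies 10 to 5 bases before it, also on the opposite strand. In Eif2ak2 the core lies at bases 19 to 28 after the start on the gene's own strand. Neither set of letters was found in the Cmpk2 and Samd9l windows. These windows end 50 bases after the start, while the promoter peaks began 163 bp after the annotated start in Cmpk2 and 92 bp in Samd9l. The letters next to those peaks may therefore lie outside the search. A match is a description of the letters, not of factor binding. The peaks below were mapped to mm9, and the sequence windows were not placed on that build.

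Cells with under 10% of the median total (230563 tags, where a tag is 1 aligned read) were left out, which kept 92 naïve and 85 pretreated cells. Kept naïve cells held 305066 to 3857034 tags (median 2305628) and a median of 5232 listed peaks, and kept pretreated cells held 502374 to 13174313 tags (median 2650490) and a median of 6605 peaks. Peaks of pretreated cells were also less sharp. The deposited focus ratio, which says how much of a peak is concentrated at 1 point, had a median of 0.956 over all promoter peaks of naïve cells and 0.897 over those of pretreated cells. Fibroblast markers were present in both groups: 12 of 13 had a promoter peak in a naïve cell and 11 of 13 in a pretreated cell, and their summed level was 4407 and 5615 CPM (tags of the gene per 1000000 tags of the group's cells). Sparc alone gave 2958.5 and 3816.8 CPM of these sums. Thy1 was listed in 1 naïve and no pretreated cell, Dcn in 3 and 1 cells, and Lum in none. Macrophage markers summed to 8.35 and 9.34 CPM, with Ptprc, Adgre1 and Tyrobp at 0. Among them Cd68 went from 7.74 CPM in 8 naïve cells to 1.68 CPM in 3 pretreated cells. Fcer1g went from 0.034 CPM in 1 cell to 7.66 CPM in 6 cells. Endothelial markers summed to 0 and 2.76 CPM, and epithelial and skeletal muscle markers were at 0 in both groups. Reads carried no molecular identifiers in the sources used here, so every interval below is a 95% interval that covers counting error only.

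The 6 genes did not differ between groups in a common way. The viperin gene Rsad2 and its neighbour Cmpk2 were at least 2-fold higher in pretreated cells, Mx2 was at least 2-fold lower, Samd9l had promoter peaks in naïve cells alone, and Mx1 and Eif2ak2 lay within 2-fold. A gene entered the comparison when its promoter had a sense peak in at least 20% of the kept cells of either group, and 4481 genes did, all 6 among them. Of these 4481, 30.1% were at least 2-fold higher in pretreated cells and 9.02% at least 2-fold lower, against 2 and 2 of the 6. Mx1 passed this entry rule through the pretreated group alone, as did Rsad2 and Cmpk2, and Samd9l passed it through the naïve group alone. The median log2 ratio over all genes compared was 0.47 (quartiles -0.17 and 1.17), and over the 6 it was -0.34 with Samd9l counted at 0 tags in pretreated cells. When group sums were scaled by the median ratio of genes in place of total tags, the median of all genes moved to 0.01 and the shares to 17.5% higher and 15.4% lower, while the same count of 2 members stayed above 2-fold. The promoter was listed in a larger share of pretreated cells for 5 of the 6 genes, and for 86.2% of all genes compared.

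**Figure D1:**
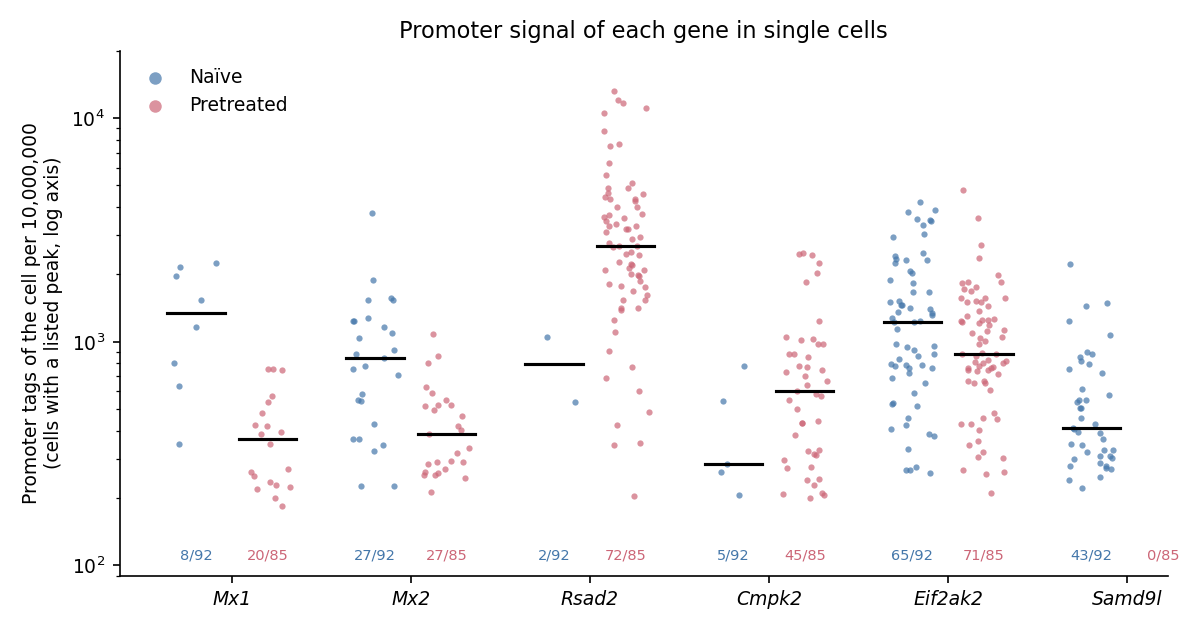
Deposited normalised tag count (tags per 10000000 tags of the cell, log axis) at the promoter of each gene; each point is a cell with a listed peak, black bars are medians of those cells, and the numbers give listed over kept cells. Rsad2 was listed in 72 of 85 pretreated and 2 of 92 naïve cells, and Samd9l in 43 naïve and no pretreated cells.

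Rsad2 was near absent from the promoter lists of naïve cells and listed in most pretreated cells. In naïve cells 2 of 92 cells (2.17%, exact binomial interval 0.264 to 7.63%) had a promoter peak, with normalised tag counts of 539.7 and 1050.0. In pretreated cells 72 of 85 (84.7%, 75.3 to 91.6%) had one, with a lowest value of 203.6, a median of 2675 and a highest of 13213. Both naïve values lie inside the pretreated range and below its lower quartile of 1742. Summed over cells, Rsad2 gave 265 naïve and 78902 pretreated tags, or 1.30 CPM (exact Poisson interval 1.15 to 1.47) against 275 CPM (273 to 277). The log2 ratio was 7.72 (7.55 to 7.90), a 211-fold difference, and 21 of the 4481 genes lay above it. A single cell gave 17.8% of the pretreated tags, and without the highest cell of each group the log2 ratio was 8.79.

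Cmpk2 differed in the same direction at a lower level. In 5 of 92 naïve cells (5.43%, 1.79 to 12.2%) it was listed, at 206.9 to 779.6 with a median of 283.2. In 45 of 85 pretreated cells (52.9%, 41.8 to 63.9%) it was listed, at 200.1 to 2483 with a median of 603.9. The values of listed cells overlapped, with 15 of the 45 pretreated values above every naïve value and no naïve value above every pretreated one. The sums were 199 and 12217 tags, or 0.979 CPM (0.847 to 1.12) and 42.6 CPM (41.8 to 43.4). The log2 ratio was 5.44 (5.24 to 5.65) or 43.5-fold, with 30 genes above it, the 21 without a naïve tag among them. With every cell weighted equally the log2 ratio was 4.22. The 5 listed naïve cells were shallow, with a median total of 859430 tags against 2376000 in the other naïve cells, and the part of depth in their listing was not tested.

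Mx1 was listed in more pretreated cells but at lower values. It was listed in 8 of 92 naïve cells (8.70%, 3.83 to 16.4%) at 349.2 to 2261 with a median of 1350. In pretreated cells it was listed in 20 of 85 (23.5%, 15 to 34%) at 183.7 to 756.2 with a median of 367.5, so that 6 of the 8 naïve values lay above every pretreated value. The sums of 2395 and 2425 tags came to 11.8 CPM (11.3 to 12.3) and 8.46 CPM (8.12 to 8.80), a log2 ratio of -0.48 (-0.56 to -0.40), within 2-fold. The value 183.7 is below the peak minimum of 200 tags per 10000000 that the file headers give, and the reason was not tested.

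Mx2 was listed in a like share of cells in both groups and at lower values in pretreated cells. The shares were 27 of 92 (29.3%, 20.3 to 39.8%) and 27 of 85 (31.8%, 22.1 to 42.8%), and the direction of their difference turned when shallow cells were kept. Listed naïve cells ran from 227.2 to 3754 with a median of 842.9, and listed pretreated cells from 213.9 to 1079 with a median of 385.2, so the ranges overlapped. The sums were 6639 and 3270 tags, or 32.7 CPM (31.9 to 33.4) and 11.4 CPM (11 to 11.8). The log2 ratio was -1.52 (-1.58 to -1.46), 2.86-fold lower in pretreated cells, and -1.03 with every cell weighted equally. The first bases of Mx1 transcripts share a run of 40 bases or more with an Mx2 transcript in the GENCODE annotation. Reads in that run could have been placed at either gene, which was not tested. The first bases of Mx2 transcripts share no such run with another gene.

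Eif2ak2, the PKR gene, had the most even promoter signal of the 6. It was listed in 65 of 92 naïve cells (70.7%, 60.2 to 79.7%) at 258.8 to 4195 with a median of 1228, and in 71 of 85 pretreated cells (83.5%, 73.9 to 90.7%) at 211.7 to 4763 with a median of 883.4. The ranges overlapped almost fully. The sums were 21588 and 26646 tags, or 106 CPM (105 to 108) and 92.9 CPM (91.8 to 94), a log2 ratio of -0.19 (-0.22 to -0.17).

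Samd9l had no listed promoter peak in any pretreated cell. It was listed in 43 of 92 naïve cells (46.7%, 36.3 to 57.4%) at 221.5 to 2237 with a median of 412.7, giving 5257 tags and 25.9 CPM (25.2 to 26.6). In the 85 pretreated cells it was listed at 0, so no fold is given. Within 2000 bp of its promoter windows no peak of either strand was listed in any of the 96 pretreated cells, shallow cells included. Of 2908 genes listed in at least 20% of naïve cells, 5 (0.172%) had no pretreated cell: Samd9l, Ifi203, Gm12338, E030024N20Rik and Gm14322, named because the count is small and after their values were seen. The first bases of Samd9l transcripts share a run of 40 bases or more with Gm20559, a gene that does not overlap it in GENCODE.

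Shares of listed cells depend on depth. The listed peaks of each cell were also thinned to a total of 1122993 tags. This left out 16 naïve and 2 pretreated cells that were shallower. Listing then occurred in 1.32% of naïve and 85.5% of pretreated cells for Rsad2, and in 1.32% and 53% for Cmpk2. The thinned shares were 9.21% and 24.1% for Mx1, 28.9% and 32.5% for Mx2, 73.7% and 84.3% for Eif2ak2, and 48.7% and 0% for Samd9l. Each share stayed within a few points of its unthinned value. A thinned peak stayed listed while any tag remained, and the peak minimum was not applied again. Thinning could therefore remove few peaks, so these shares cannot show how far listing depends on depth.

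Peaks listed further inside the genes gave another picture for Samd9l, Mx1 and Eif2ak2. These were sense peaks over 1000 bp from the annotated start and not intergenic, a readout added after the promoter values had been seen. Windows belonged to the gene of the nearest annotated start, so inner parts nearer to the start of another gene were not counted. Samd9l was listed there in 25 of 92 naïve cells (27.2%, 18.4 to 37.4%) and in 57 of 85 pretreated cells (67.1%, 56 to 76.9%), with 3349 and 11743 tags, 16.5 and 40.9 CPM and a log2 ratio of 1.31 (1.26 to 1.37). The last exon of Samd9l, with windows annotated at the transcript end counted in, held 100% of these naïve tags and 98.6% of the pretreated ones. The inner windows lay at a median of 25736 and 26551 bp from the start. Most of these windows were used by 1 cell each: 27 of 29 in naïve and 42 of 57 in pretreated cells. Counting promoter or inner peaks together, Samd9l was listed in 50 of 92 naïve cells (54.3%) and 57 of 85 pretreated cells (67.1%).

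Inside Mx1 the listed cells went from 26 naïve to 54 pretreated, with 24.2 and 45.7 CPM and a log2 ratio of 0.92 (0.87 to 0.97), while its promoter ratio was below 0. Inside Rsad2 they went from 12 to 59 cells, with a log2 ratio of 3.28 (3.20 to 3.36), and inside Cmpk2 from 13 to 39 cells, with 1.37 (1.31 to 1.43). Mx2 was listed inside the gene in 29 and 33 cells, with a log2 ratio of -0.50 (-0.55 to -0.45). Eif2ak2 was listed there in 40 and 29 cells, with a log2 ratio of -1.0 (-1.05 to -0.95). Over the 3261 genes compared inside the gene, 12.6% were at least 2-fold higher in pretreated cells, 27.4% at least 2-fold lower, and 64.3% were listed in a larger share of pretreated cells. Rsad2, Cmpk2 and Samd9l were at least 2-fold higher and Eif2ak2 stood at the 2-fold mark, so 3 and 1 of the 6 passed it.

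**Figure D2:**
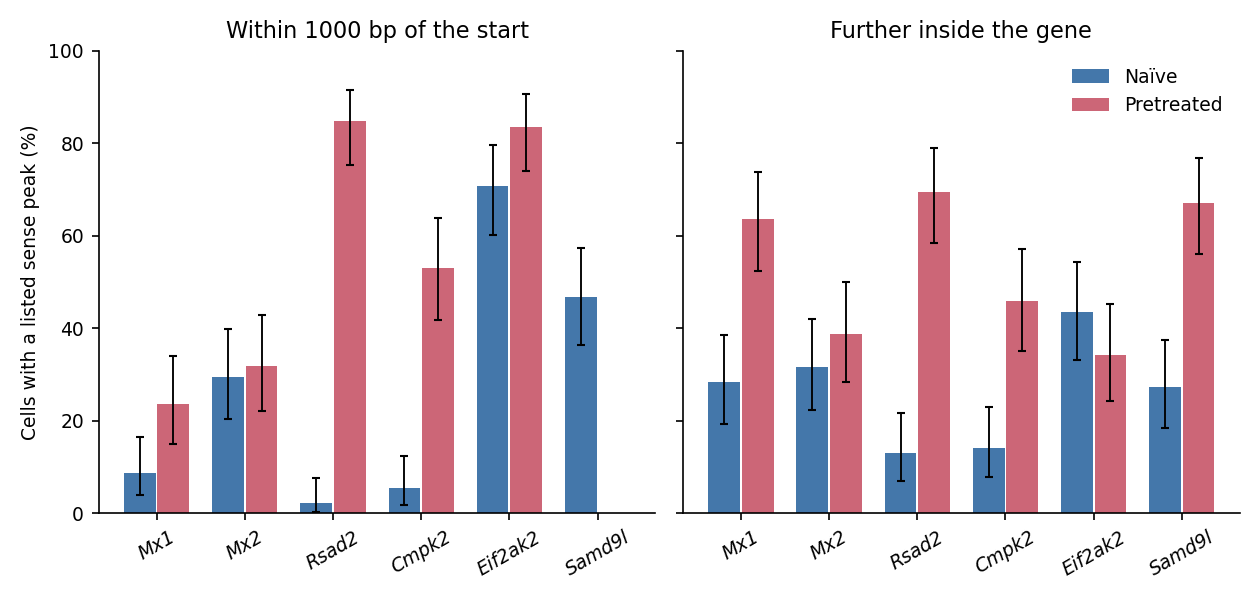
Share of kept cells (%) with a listed sense peak at the promoter (left) and over 1000 bp inside the gene (right), with exact binomial 95% intervals where a cell was listed. Samd9l has 46.7% of naïve and 0% of pretreated cells at the promoter, and 27.2% and 67.1% inside the gene, and Rsad2 is higher in pretreated cells in both.

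Where the inner tags lay differed by gene. Last exon here again takes in windows annotated at the transcript end. In Rsad2 the last exon held 17.9% of the naïve inner tags (251 of 1401) and 88.5% of the pretreated ones (16990 of 19207). In Mx1 the last exon held 36.9% and 61.6%, in Mx2 8.63% and 41.3%, and in Cmpk2 54.1% and 59.3%. In Eif2ak2 no inner tag lay in the last exon, and introns held 90.2% and 87.9%. The inner windows credited to Eif2ak2 reached no further than 14991 bp from the start in naïve and 14594 bp in pretreated cells. Whether its last exon could be credited to it was not tested, so its inner values may cover a part of the gene. Of all sense tags of Rsad2, the promoter held 15.9% among naïve and 80.4% among pretreated cells. For Cmpk2 these shares were 6.80% and 55.1% for Cmpk2. For Mx1 it was 32.7% and 15.6%, for Mx2 50.8% and 33.7%, for Eif2ak2 72.6% and 82.2%, and for Samd9l 61.1% and 0%. The share at the promoter was larger in pretreated cells for 3 of the 6 genes and smaller for the other 3, against a larger share for 73.4% of the 1508 genes compared both at the promoter and inside the gene.

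**Figure D3:**
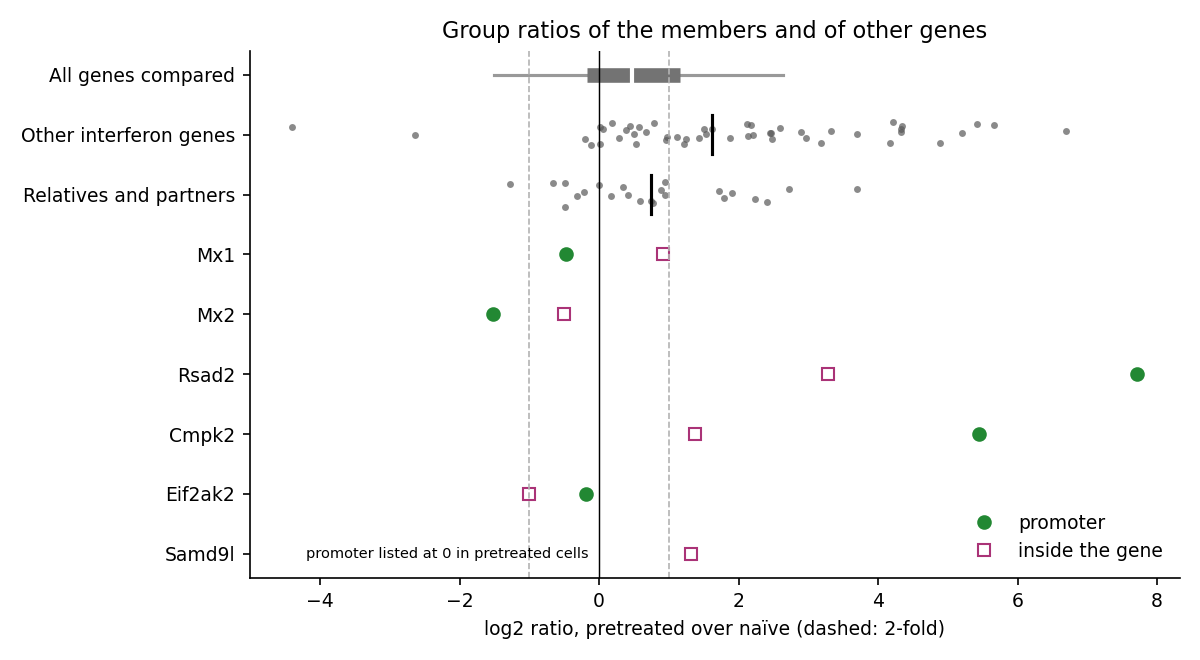
Log2 ratio of pretreated over naïve CPM for each gene at its promoter (filled) and inside the gene (open), beside the listed genes compared in each set (points, black bar at the median of those drawn) and all genes compared (thick bar, quartiles; thin line, 5th to 95th percentile; white mark, median). Genes listed at 0 in a group are not drawn. Rsad2 and Cmpk2 lie at 7.72 and 5.44, to the right of the all-gene quartiles, and Mx2 at -1.52 lies to the left.

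The start sites were read from the deposited 150 bp windows on mm9, with the deposited distance to the annotated start (negative means upstream). The window with the most tags was the same in both groups for Mx1 and Eif2ak2, 2 of the 5 genes with tags in both groups, against 33% of 4455 genes. Small shifts were also found over all genes. Leading windows lay within 10 bp of each other for 2508 genes, of which 1471 had the same window. Of the others, 634 lay further upstream and 403 further downstream in pretreated cells. Shifts of a few bases below are therefore given as values only.

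Rsad2 (chromosome 12, minus strand) used 1 tight site in pretreated cells. The 3 windows at 19, 20 and 22 bp after the annotated start (chr12:27141221-27141373) held 99.9% of the pretreated tags in 71 cells, and the 22 bp window alone 59.9% in 38 cells. None of the 265 naïve tags lay there. The 2 naïve cells had their peaks at 83 bp (162 tags) and 189 bp (103 tags), in places where pretreated cells had 61 tags in all. The median focus ratio of the 72 pretreated peaks was 0.946.

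Cmpk2 (chromosome 12, plus strand) used a pair of sites, neither within 100 bp of the annotated start. Windows at 163 to 186 bp (chr12:27154169-27154341) held 61.8% of naïve tags (3 cells) and 60.8% of pretreated tags (27 cells). Windows at 638 to 768 bp (chr12:27154644-27154923) held 38.2% in 2 cells and 38.7% in 25 cells. All these windows are annotated as exon. The share of the 2 sites was close between groups, although the naïve shares rest on 199 tags. With windows within 250 bp of the start alone, the difference in the share of listed cells was 28.5 percentage points in place of 47.5. The leading windows of Rsad2 and Cmpk2 start 12961 bp apart and run away from each other, on opposite strands.

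Mx1 (chromosome 16, minus strand) led from the annotated start in both groups. The window at 0 bp (chr16:97684439-97684588) held 75.4% of naïve tags (6 cells) and 50.3% of pretreated tags (9 cells), and the window 3 bp upstream held 26.4% of the pretreated tags in 8 cells and no naïve tag. Joined, they held 75.4% and 76.7%. The rest lay in intron windows used by 1 cell each.

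Mx2 (chromosome 16, plus strand) used windows within a few bases of the start. The windows at 0 and 1 bp held 36.5% and 48.1% of the naïve tags, in 10 and 14 cells, and 10.3% and 8.20% of the pretreated tags. Their distances refer to different annotated transcripts. The 0 bp window starts at base 97757616 and the 1 bp window at base 97757615, which is upstream of it. The windows at -2 and -4 bp held 41.3% and 20.2% of the pretreated tags, in 12 and 5 cells, and no naïve tag. Windows from -31 to 21 bp together (chr16:97757583-97757786) held 89.4% and 91.6%. The median focus ratio of Mx2 peaks was 0.985 among naïve and 0.883 among pretreated cells. The leading windows of Mx1 and Mx2 start 73176 bp apart, also on opposite strands and running away from each other.

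Eif2ak2 (chromosome 17, minus strand) used many windows around 1 site. Windows from -8 to 111 bp (chr17:79281727-79281995) held 99.7% of naïve and 100% of pretreated tags. The 29 bp window led in both groups, with 44.5% of naïve tags in 27 cells and 19.5% of pretreated tags in 11 cells. The 58 bp window held 10.4% and 16.4%, the 63 bp window 0% and 8.72%, and the 47 bp window 1.89% and 10.0%. The median tag lay at 29 bp (quartiles 29 and 36) in naïve and at 42 bp (29 and 58) in pretreated cells, and the median focus ratio was 0.922 and 0.805. Pretreated tags were thus spread further downstream, and all promoter peaks of pretreated cells also had the lower focus ratio given above, whose part in this was not tested.

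Samd9l (chromosome 6, minus strand) used windows from 92 to 172 bp in naïve cells (chr6:3349325-3349554), 10 of the 11 annotated as 5′ UTR. The 113 bp window led with 40.4% of tags in 21 cells, and the 172 bp window followed with 15.7% in 8 cells. No window lay at the annotated start itself.

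**Figure D4:**
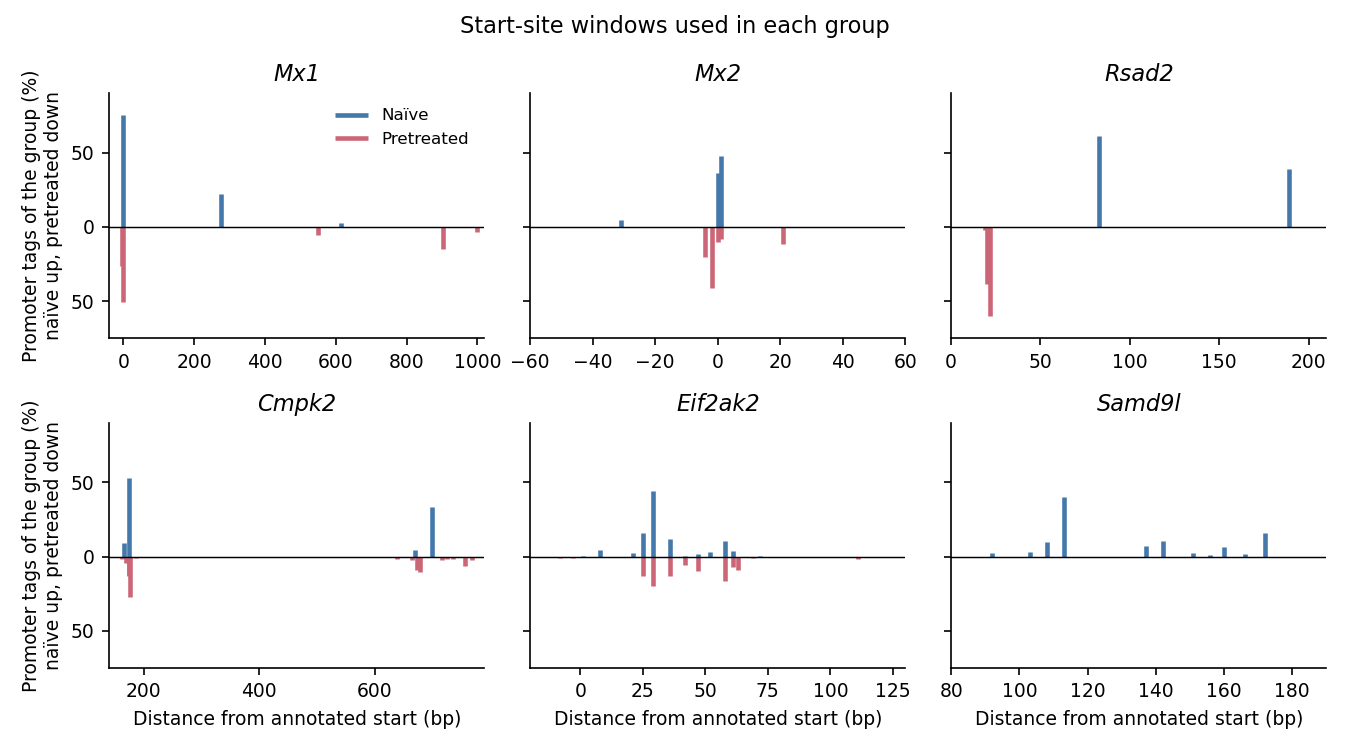
Share of each group's promoter tags (%) by window, against the distance from the annotated start (bp), naïve upward and pretreated downward. A few far windows of Mx2 and Eif2ak2 lie outside the drawn range. Distances of Mx1 and of Mx2 windows refer to more than 1 annotated transcript. Rsad2 sits at 19 to 22 bp in pretreated cells and at 83 and 189 bp in naïve cells, Cmpk2 has 2 sites in both groups, and Eif2ak2 spreads from 29 bp further downstream.

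Within a cell, naïve cells listed a median of 2 of the 6 promoters (highest 4) and pretreated cells a median of 3 (highest 5). No promoter of the 6 was listed in 11 naïve and 2 pretreated cells, and 3 or more were listed in 19 naïve and 53 pretreated cells. Pretreated cells also listed more peaks of any gene, and 86.2% of all genes compared were listed in a larger share of them. The neighbours Rsad2 and Cmpk2 were both listed in 40 of 85 pretreated cells, Rsad2 alone in 32, Cmpk2 alone in 5 and neither in 8. With the same shares and no relation between the genes, 38.1 cells would list both. Among the 40 cells that listed both, the Spearman correlation of their normalised tag counts was 0.02. That value describes cells of the same group, which are not replicates, under a peak minimum. In naïve cells no cell listed both.

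**Figure D5:**
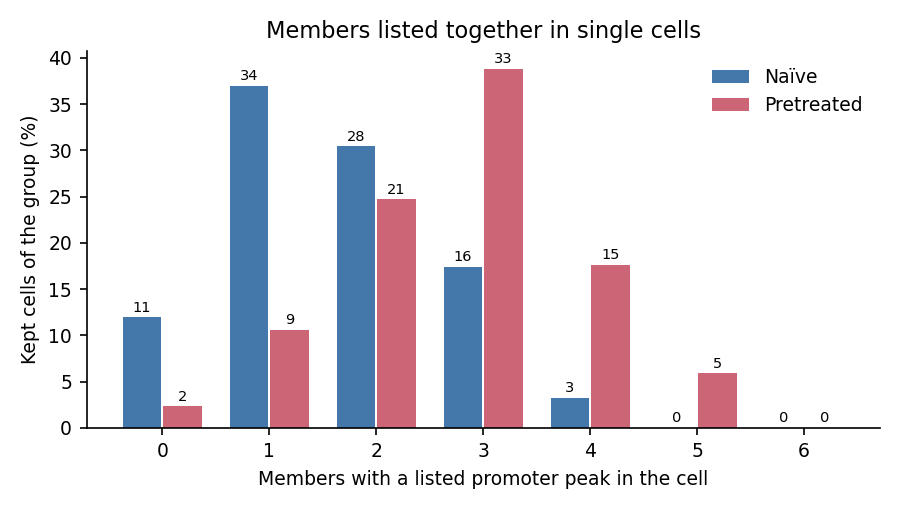
Share of kept cells (%) by the number of the 6 promoters listed in the cell, with the number of cells above each bar. Naïve cells peak at 1 promoter (34 cells) and pretreated cells at 3 (33 cells).

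For likeness over cells, the phi coefficient (the correlation of listed or not listed) was taken over the 92 naïve cells against 3714 genes listed in at least 20% of all kept cells. Mx1, Rsad2 and Cmpk2 were listed in fewer than 10 naïve cells and have no entry. Closest to Samd9l were Ifit3 (phi 0.46, 26 cells with both) and Tgtp2 (phi 0.44, 33 cells), an antiviral cap-binding family member and an interferon-inducible GTPase. Their own log2 ratios were 1.51 for Ifit3 and -6.83 for Tgtp2, in opposite directions. Closest to Mx2 were Smarca2 (phi 0.40) and Olfml2b (0.39), and closest to Eif2ak2 were Zfp950 (0.37) and Mrpl45 (0.36). These are the largest of many values over few cells and all points share the peak minimum.

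Relatives and partners of the 6 proteins were followed in a list of 33 genes, of which 30 had a promoter peak and 23 entered the comparison. Of the 23, 7 were at least 2-fold higher in pretreated cells, 1 was at least 2-fold lower and 15 lay between, beside 30.1% and 9.02% of all genes compared. Their median log2 ratio was 0.75, against 0.47 for all genes.

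The 2 highest of the 23, Dnajc3 and Adar, encode proteins that restrain PKR. Dnajc3, a co-chaperone that inhibits PKR, went from 4.99 to 65 CPM (log2 ratio 3.70, 3.61 to 3.80). Adar, which edits double-stranded RNA and so limits PKR activation, went from 7.63 to 50.5 CPM (2.73, 2.65 to 2.80). Tarbp2, a double-stranded RNA binding inhibitor of PKR, went from 14.3 to 53.8 CPM (1.91, 1.86 to 1.97). Eif2s1, the eIF2 alpha subunit that PKR phosphorylates, was listed in 84 of 92 and 81 of 85 cells, at 353 and 251 CPM (-0.49, -0.51 to -0.48). Of 8 genes in this set, 5 entered the comparison, 3 were higher and none was lower, beside 30.1% and 9.02% of all genes compared.

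Downstream of eIF2 alpha, 2 of 6 compared genes were at least 2-fold higher, close to the 30.1% of all genes compared. Atf3, a stress-induced transcription factor, had a log2 ratio of 2.40 (2.27 to 2.54), and Ddit3, which encodes CHOP, had 1.72 (1.67 to 1.78) with listing in 28 of 92 and 73 of 85 cells. Atf4, the central factor of that response, lay within 2-fold at 0.17 (0.12 to 0.22). Among dynamin-like GTPases related to Mx, Dnm2, which acts in endocytosis, had a log2 ratio of 1.79 (1.69 to 1.90), and Dnm1l, which divides mitochondria, had -1.27 (-1.30 to -1.25), the 1 gene of the list past 2-fold lower. Among the partners of viperin, Vapa, an endoplasmic reticulum membrane anchor, had 2.23 (2.15 to 2.32), and the other 4 compared lay within 2-fold. All 4 compared nucleotide kinases related to Cmpk2 lay within 2-fold, with a median log2 ratio of 0.38.

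Of 67 other interferon-response genes, 66 had a promoter peak and 51 entered the comparison. At least 2-fold higher in pretreated cells were 32, at least 2-fold lower 3, and 16 lay between, with a median log2 ratio of 1.62. Over all genes compared, 30.1% were higher and 9.02% lower, with a median of 0.47. The 5 highest were Oas2, Gbp3, Irf7, Bst2 and Zbp1. Oas2, which makes the activator of RNase L, was listed in no naïve cell and in 53 pretreated cells (39.8 CPM). Gbp3, a guanylate-binding protein, had a log2 ratio of 6.70 (6.54 to 6.87), between those of Rsad2 and Cmpk2. Irf7, a transcription factor of interferon genes, had 5.66 (5.42 to 5.92), Bst2, the virion tether, had 5.42 (5.38 to 5.46), and Zbp1, a sensor of Z-form nucleic acid, had 5.20 (5.14 to 5.26). The 2 lowest were Ifi203, listed in 28 naïve and no pretreated cells as described for Samd9l, and Ifitm2, an endosomal antiviral protein, at -4.40 (-4.43 to -4.38). Ifi203 and Ifitm2 belong to families of similar genes, and whether reads were split between family members was not tested.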

How the data were processed

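A peak list was deposited for each of 192 cells. HOMER findPeaks made these lists with its tss style, by strand (peak width 150 bp, spacing 300 bp, at least 200 tags per 10000000, 2-fold over the local 10000 bp with p 1e-04), per the file headers. The signal the authors deposited is a tag count scaled to 10000000 tags in that cell, and the deposited focus ratio is a fraction, per the file headers. The submitters' processing notes name Bowtie2, HOMER and mm9; versions, read filters and the handling of repeated mapping are not given in the sources used here. The deposited window table, annotated with RefSeq genes, gave gene names and distances. Tags were recovered as signal times the header total divided by 10000000; none of 1082504 peaks was off a whole number by more than 0.1 or the rounding. The 384 unnamed columns of 2 further tables were not used.

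Peaks were given to the nearest window within 2 bp. Gene strand came from GENCODE vM21 by symbol; its coordinates were not used for peaks. Cells below 10% of the median total were left out. Tags were summed per group, expressed as CPM, and compared as a log2 ratio with 0.5 tag added, so that a gene past 2-fold counted as higher or lower. With 1 sample per group no test was made. Intervals are exact Poisson or exact binomial (Clopper-Pearson) at 95%. Text names the 6 genes, 2 most alike genes by phi for those listed in at least 10 naïve cells, the 5 highest and 2 lowest of both lists, and every relative or partner past 2-fold; other genes are named for their role or a small count. Genes and lists were chosen with earlier results of these data known. Alternatives changed the cells kept, the highest cell, the scaling, the entry rule, the distance, the strand and the joining of windows. Shared runs of 40 bases were sought in the first 150 bases of GENCODE transcripts. Work used Python 3.11.15, numpy 2.4.6, pandas 2.3.3, scipy 1.17.1 and matplotlib 3.10.9.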

Additional observations from a re-analysis of the deposited data

Results flagged for a closer look

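Peaks on the strand opposite to the gene lay outside the comparisons above. At the Mx1 promoter they held 267 tags in 2 pretreated cells and none in naïve cells, at -196 to -190 bp from the annotated start. At the Mx2 promoter they held 600 tags in 2 pretreated cells and none in naïve cells, at -187 to -100 bp. At the Eif2ak2 promoter they held 403 tags in 2 naïve cells and 639 tags in 5 pretreated cells, where GENCODE places the gene Gm26637 across it. Rsad2, Cmpk2 and Samd9l had no such tags in either group. With peaks of both strands counted, each of these genes kept its side of the 2-fold mark.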

How the results depend on the processing

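The count of 2 members at least 2-fold higher was 2 under all 9 alternatives. The count of relatives and partners at least 2-fold higher was 7 of 23 and ran from 6 to 9 under 8 alternatives. With no minimum share of cells it was 12 of 30. Over all genes, 30.1% were higher in the main setting and 40.7% with no minimum share. The count of other interferon-response genes was 32 of 51 in the main setting. It ran from 28 of 51 with median-ratio scaling, where 17.5% of all genes were higher, to 40 of 66 with no minimum share. The count of members with the same leading window was 2 of 5, and it was 4 with windows within 50 bp joined, 5 with windows within 150 bp joined and 1 with the leading window chosen by cells; the joined windows are wider by construction. With all cells kept, the Mx2 share of listed cells was lower in pretreated cells by -1.04 points in place of higher by 2.42, and the count of members with a larger share was 4 in place of 5. Scaling by the median ratio gave log2 ratios of 7.25 for Rsad2, -0.95 for Mx1 and -1.99 for Mx2. No paired analysis was possible because nothing here was tested and a cell's number pairs it with no other cell. Depth limits listing: the file headers give a minimum of 200 tags per 10000000 for a peak, so a cell with no listed promoter peak need not lack the transcript.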
